A study of Mus musculus with 4 samples.

Results

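The cells described here are epithelial cells of the neonatal mouse oviduct in which no Foxj1 RNA was found. They were chosen by measured values from the 2 oviduct libraries of a single-cell RNA data set: at least 3 of the 7 epithelial genes Epcam, Cldn3, Cldn7, Wfdc2, Cdh1, Ehf and Krt18 detected, these genes together at 0.1% or more of the cell's UMIs, and Upk3b (mesothelium), Pecam1 (endothelium) and Foxj1 at 0. A UMI (unique molecular identifier) marks 1 captured RNA molecule. The rule found 383 cells, 136 in oviduct library 1 and 247 in oviduct library 2, among 21326 cells of all 4 libraries that passed the filters (500 genes or more, at most 15% mitochondrial UMIs). Of these, 138 cells held 5000 UMIs or more (49 and 89 in the libraries, called deep here) and 245 held fewer (87 and 158, called shallow).

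The study took oviducts and uteri from untreated, wild-type CD1 mice at postnatal day 3 and made 2 libraries per organ with droplet-based 3' chemistry. The tissue of 3 or 4 neonates was pooled for a library, and the design text states that oviduct and uterus were taken from the same animals. The oviduct is labelled only as neonatal oviduct, so its segments are not separated. The groups used are Foxj1-zero cells of the oviduct, Foxj1-positive epithelial cells of the same libraries, and uterine cells chosen by the Foxj1-zero rule.

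The epithelium of the oviduct and the uterus forms from the Müllerian duct. In the mature oviduct it consists of secretory cells, which release proteins such as the oviductal glycoprotein Ovgp1 into the lumen, and of multiciliated cells, whose programme depends on the transcription factor Foxj1. Pax8 is a transcription factor of the duct epithelium that stays on in secretory cells. Wt1 and Pax2, both transcription factors of the duct, are known to differ in level along the length of the oviduct.

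The libraries held 5716 to 7808 called barcodes and 61117726 to 114419939 UMIs. Libraries shared 8 to 15 barcodes per pair, at most 0.262% of the smaller one. Deep Foxj1-zero cells summed to 1192314 and 1623007 UMIs in the oviduct libraries and to 253647 and 448514 in the uterine ones, where 16 and 18 cells met the rule. Shallow cells summed to 218315 and 382173 UMIs in the oviduct and to 87917 and 142517 in the uterus, from 39 and 81 cells. Levels are given as CPM, counts of a gene per 1000000 UMIs of the summed cells, and they cover RNA captured near the 3' end. A doublet caller marked 11 deep and 5 shallow cells of the oviduct, which were kept in the values below and left out in an alternative.

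Foxj1-zero epithelium was a small share of the oviduct. Deep cells made up 0.708% (95% exact binomial interval 0.524 to 0.935) of library 1 and 1.52% (1.23 to 1.87) of library 2, against 0.394% and 0.399% of the uterine libraries. The oviduct libraries lay above the uterine ones, with an exact two-sided permutation p of 0.33, the smallest that 2 against 2 libraries allow. Shallow cells made up 1.26% and 2.71% of the oviduct libraries and 0.961% and 1.80% of the uterine ones. These ranges overlapped (exact permutation p = 0.667). The intervals cover counting error only, and the oviduct libraries differed from each other by more than these intervals.

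The deep and shallow cells differed in the markers they showed. The deep cells held a median of 17776 and 13713 UMIs in libraries 1 and 2, and the shallow cells 2433 and 2236. All 7 markers were detected in 23 of 49 and 45 of 89 deep cells, but in 2 of 87 and 1 of 158 shallow cells, where 42 and 67 cells had only 3. Cells with under 1% mitochondrial UMIs made up 22.4% and 19.1% of the deep cells and 21.8% and 35.4% of the shallow ones, close together in library 1 and further apart in library 2. The plot of depth against mitochondrial share shows these cells as a band along the lower edge. At the edges of the rule, 117 oviduct cells with 3 markers had Pax8 at 99.7 CPM and Col1a1 (a fibroblast collagen) at 801 CPM. The 112 cells with 2 markers, which the rule left out, had 73.2 and 997 CPM. At the other edge, 24 cells with a marker share of 0.1 to 0.12% had Epcam at 144, Pax8 at 42.2 and Col1a1 at 1622 CPM. The 20 cells with a share of 0.08 to 0.1%, which the rule left out, had 138, 29.6 and 1599 CPM. The median mitochondrial share was 12.9% in both sets. The 19 cells just above 5000 UMIs had Epcam at 654 CPM and Pax8 at 125 CPM, and the 19 just below had 641 and 59.4 CPM.

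**Figure D1:**
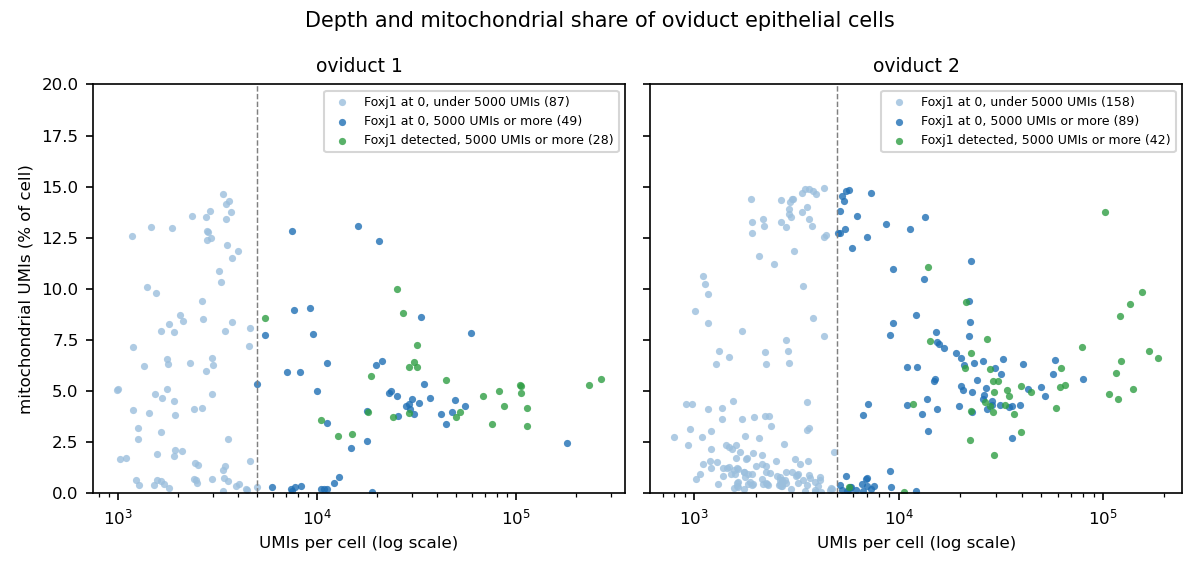
Mitochondrial share (% of a cell's UMIs, vertical) against UMIs per cell (horizontal, log scale) for epithelial cells of both oviduct libraries, 1 point per cell, with the number of cells in each legend and a dashed line at 5000 UMIs. Of the Foxj1-positive cells, only the 70 with 5000 UMIs or more are plotted (median 34151 UMIs), and the 13 with fewer are left out. Cells with under 1% mitochondrial UMIs form a band along the lower edge.

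The label was checked on genes that the rule did not use. Krt8, a simple-epithelium keratin, stood at 661 and 848 CPM in deep cells of libraries 1 and 2 against 127 and 135 CPM in all other cells of those libraries. Pax8 stood at 160 and 208 CPM against 12.4 and 18.1 CPM. Since the cells were picked by epithelial genes, these contrasts are a description without a test. Among genes with at least 50 CPM, the highest ratios to other cells outside the rule belonged to Wfdc15b (138 and 125 CPM, 23.8-fold), the potassium channel subunit Kcne3 (73.8 and 116 CPM, 23.0-fold), the carboxylesterase Ces1d (107 and 107 CPM, 22.9-fold) and Ppp1r1b (83.0 and 85.0 CPM, 19.9-fold). Napsa, S100a14, Plet1, Rab25, Fermt1, Slc1a1, Ap3b2 and BC048679 followed with ratios from 15.1 to 18.8. The highest levels outside mitochondrial and ribosomal protein genes belonged mostly to genes that all cells use, such as Tpt1 and Eef1a1. Of the 10 highest, only Ifitm3 (4166 and 3769 CPM against 691 and 689 CPM in other cells) and Ifitm1 (3039 and 2850 against 436 and 419 CPM), both interferon-induced membrane proteins, were more than 5 times the level of other cells.

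Defining markers of other cell types varied in deep cells, with stromal and haemoglobin genes the highest among those that epithelium does not make. Ptprc, the pan-leukocyte marker, was at 0 in both libraries, as was the mesothelial gene Gpm6a, and Upk1b and Lrrn4 stayed under 4 CPM. The 10 mesothelium markers summed to 1010 and 1189 CPM against 881 and 844 CPM in other cells, most of it Krt19 (845 and 961 CPM), a keratin of simple epithelia, and Wt1 (108 and 160 CPM). The 7 erythroid markers summed to 6378 and 200 CPM against 637 and 1326 CPM, and in library 1 nearly all of them came from the single cell of subcluster 2 described further on. The 8 endothelial markers summed to 57.9 and 56.1 CPM against 299.8 and 301.1 CPM in other cells, with Cdh5 at 14.3 and 15.4 CPM. The 12 mesenchyme markers summed to 1001 and 465 CPM, none of them at 0, against 7898 and 7523 CPM in other cells, and the 8 smooth muscle markers to 417 and 299 CPM against 2929 and 3058 CPM. The stromal genes were concentrated in 1 of 5 subclusters, described further on. If every collagen UMI were free RNA from burst cells, free RNA would make up at most 14.98% and 7.43% of the deep oviduct sums, but 46.5% and 83.8% of the uterine ones.

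Secretory and duct genes were found in Foxj1-zero and in Foxj1-positive cells. The 24 secretory and glycoprotein genes summed to 818 and 1282 CPM in deep Foxj1-zero cells and to 1349 and 1416 CPM in deep Foxj1-positive cells, higher in both libraries of the latter. C3 (complement component) stood at 121 and 260 CPM in deep Foxj1-zero cells and at 280 and 244 CPM in deep Foxj1-positive cells. Ovgp1 stood at 77.2 and 85.0 CPM against 109.8 and 108.3 CPM. Pax8 stood at 160 and 208 CPM against 199.8 and 203 CPM, and Wt1 at 108 and 160 CPM against 159 and 221 CPM. Each of these genes was therefore found on both sides of the Foxj1 rule, with the Foxj1-positive libraries higher for Ovgp1 and overlapping ranges for the other 3. Thinned to 5000 UMIs, 18.4% and 22.5% of Foxj1-zero cells and 42.9% and 35.7% of Foxj1-positive cells had an Ovgp1 UMI. Foxj1 was used to divide the cells and Foxj1-positive cells were deeper, so no test applies.

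The cilia genes differed more. Dynlrb2 (a dynein light chain) stood at 2.52 and 2.46 CPM in deep Foxj1-zero cells and at 102 and 44.3 CPM in deep Foxj1-positive cells. Fam183b was at 0 and 0.616 CPM against 70.1 and 21.7 CPM. Pifo (13.4 and 12.3 against 86.1 and 55.6 CPM), Cfap126 (8.39 and 8.01 against 55.2 and 42.3 CPM) and Rsph1 (7.55 and 7.39 against 60.7 and 31.8 CPM) were lower in Foxj1-zero cells in both libraries but present. The 23 motile cilia genes in the files summed to 73.8 and 98.0 CPM against 826 and 416 CPM. Of the early genes of multiciliated cell formation, Mcidas was at 0 in both libraries against 8.83 and 13.7 CPM, Deup1 at 0.839 and 2.46 against 17.1 and 38.6 CPM, and Ccno at 3.35 and 2.46 against 14.4 and 30.6 CPM.

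A zero for Foxj1 in a cell depends on how many UMIs it holds. When every deep cell was thinned to 5000 UMIs, 3 or more cilia genes were detected in 0 of 49 and 4 of 89 Foxj1-zero cells and in 2 of 28 and 9 of 42 Foxj1-positive cells. Before thinning these shares were 22.4% and 22.5% against 60.7% and 61.9%. In deep cells of the same oviduct libraries with none of the 7 markers, 0 of 300 in each had 3 or more cilia genes after thinning. The shallow Foxj1-zero cells of library 1 stood apart, with Dynlrb2 at 82.4 CPM, Fam183b at 41.2 CPM and cilia genes summing to 439.7 CPM, against 128 CPM in library 2. Of the cilia UMIs in shallow cells of library 1, 79.2% came from the 3 of 87 cells with 3 or more of these genes.

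**Figure D2:**
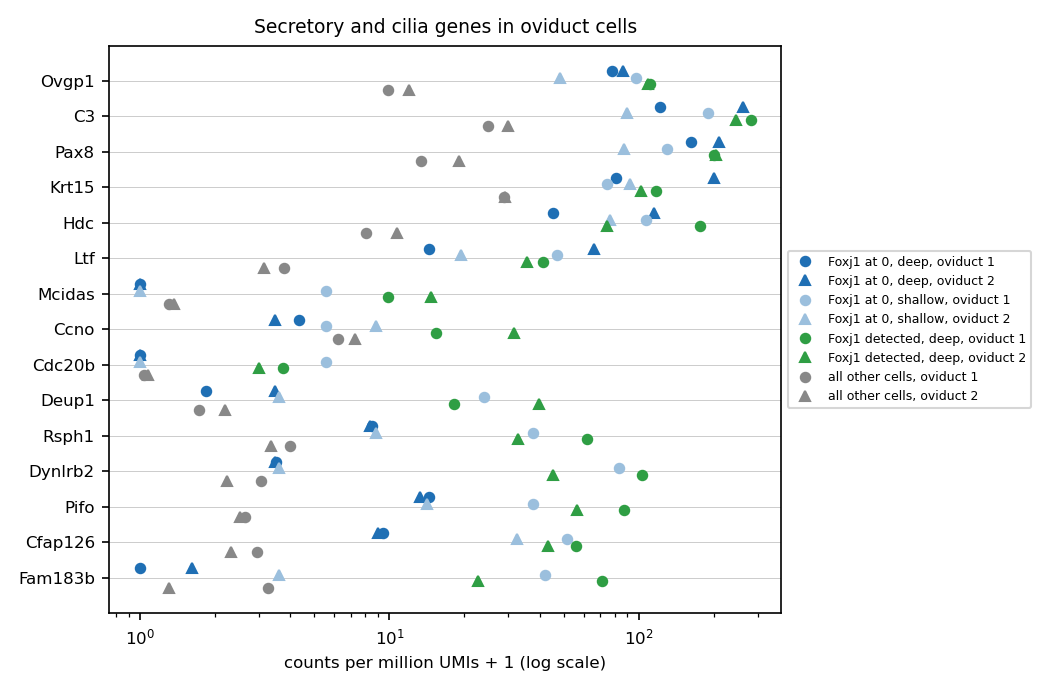
Levels of secretory, early multiciliation and cilia genes (CPM + 1, log scale, horizontal) in 4 classes of oviduct cells, 1 point per library. C3 and Pax8 overlap between deep Foxj1-zero and Foxj1-positive cells, while cilia genes such as Dynlrb2 stand near 2.5 CPM in deep Foxj1-zero cells and at 102 and 44.3 CPM in Foxj1-positive cells.

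In deep cells thinned to 5000 UMIs, the share with a UMI was also counted for single genes. This counts detection at that depth and not how many cells carry a gene. Pax8 was detected in 53.1% and 48.3% of them, against 0% and 0.667% of deep cells without any marker (0 of 300 allows up to 1.22% at 95% exact binomial confidence). C3 was detected in 40.8% and 50.6%, Krt15 in 26.5% and 50.6%, Ovgp1 in 18.4% and 22.5%, Hdc in 16.3% and 24.7% and Calb1 in 8.16% and 20.2%, against at most 1.33% in cells without markers for each of these 5 genes. Wt1 was detected in 34.7% and 40.4%, but also in 27% and 28.7% of cells without markers, so it does not set the epithelium apart. Before thinning, the deep Foxj1-zero cells held medians of 17776 and 13713 UMIs and the cells without markers 12844.5 and 11180.5.

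The 138 deep cells fell into 5 subclusters, each with cells of both libraries. Because the same counts defined the subclusters, their genes are a description without a test. The number was 6 at a higher and 4 at a lower clustering resolution. Subcluster 1, the largest, held 14 and 36 cells and was led by Ptpru, Thbs1, Akap12, Edn1 and Mical2. Akap12, a scaffold protein for protein kinase A, stood at 218 and 444 CPM there and Thbs1 (thrombospondin) at 77.0 and 133 CPM. Wt1 was at 196 and 219 CPM and C3 at 244 and 342 CPM. The bicarbonate cotransporter Slc4a4 was at 176 and 211 CPM.

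Subcluster 5, with 4 and 12 cells, differed in its secretory and duct genes. Hdc, the enzyme that makes histamine, stood at 237 and 491 CPM there against 33.7 CPM in the other deep cells pooled, and the calcium-binding protein Calb1 at 104 and 229 CPM. Its leading genes were Guca2b (the gut peptide uroguanylin), Ly6c1, the keratin Krt12, D430041D05Rik and Arl14. Ly6c1 stood at 104 and 162 CPM and Krt12 at 44.4 and 63.5 CPM. Guca2b (14.8 and 70.6 CPM) and D430041D05Rik (14.8 and 102 CPM) led mainly through library 2. The 4 cells of library 1 summed to only 67543 UMIs, so levels of 0 or 14.8 CPM there rest on very few counts. Arl14 and Pax2 were at 0 in its 4 cells of library 1 and at 88.2 and 74.1 CPM in its 12 cells of library 2. Wt1 was at 14.8 and 3.53 CPM, the lowest of the 5 subclusters in each library. Krt15 (0 and 14.1 CPM), the retinaldehyde dehydrogenase Aldh1a3 (0 and 0 CPM), Tgfbi (44.4 and 7.06 CPM) and Anpep (0 and 3.53 CPM) were also lowest there. Pax8 (133 and 261 CPM) and Ovgp1 (296 and 81.2 CPM), which the rule did not use, were present. Wt1, Krt15 and Aldh1a3 RNA was lower than in subcluster 1. Epcam stood at 1051 and 1606 CPM, but it is a gene of the rule.

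Subcluster 4, with 10 and 11 cells, was led by the mitosis genes Cep55, Bub1, Nusap1, Plk1 and Pimreg. Top2a (DNA topoisomerase of dividing cells) stood at 538 and 433 CPM against 26.7 to 35.3 CPM in subcluster 1. The 20 G2 and M phase genes summed to 4502 and 4724 CPM there and to 44.4 to 1390 CPM in the other subclusters. After thinning to 5000 UMIs, 15 of 49 and 23 of 89 deep cells held 5 or more UMIs of these genes, that is 30.6% and 25.8%.

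Subcluster 2 stood apart in its mitochondrial share and subcluster 3 in RNA typical of other cells. Subcluster 2, with 13 and 15 cells, had a median mitochondrial share of 0.348% and 0.343% and median depths of 10859 and 6703 UMIs. Haemoglobin genes led it: 1 cell of library 1 with 12216 UMIs held 61.9% haemoglobin UMIs and 99.5% of the library's Hbb-bs UMIs. Fos was at 524 and 455 CPM there, against 1249 CPM or more in each of the other subclusters and libraries. Subcluster 3, with 8 and 15 cells, was led by Myh11, Des, Igf1, Tagln and Rspo3, genes of smooth muscle and stroma. Its median mitochondrial share was 4.42% in library 1, within the range of subclusters 1, 4 and 5, and 12.9% in library 2. Acta2 stood at 1162 and 914 CPM and Col1a1 at 1329 and 939 CPM there, and all its cells had 0.256% or more stromal and muscle UMIs. The mesenchyme markers summed to 5005 and 3633 CPM in it and to at most 458 CPM in any other subcluster and library. Epcam was at 587 and 655 CPM, below the 1212 and 1314 CPM of subcluster 1.

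**Figure D3:**
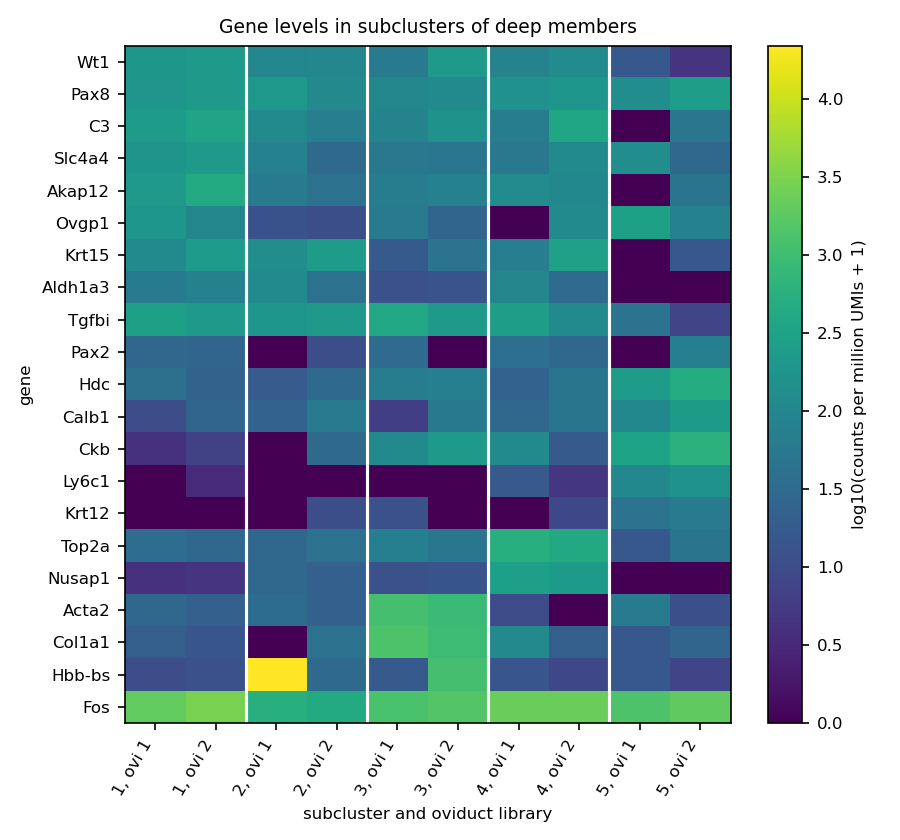
Levels of 21 genes, as log10(CPM + 1) by colour, in the 5 subclusters of deep Foxj1-zero cells, 1 column per subcluster and oviduct library. Wt1, Krt15, Aldh1a3 and Tgfbi are low and Hdc, Calb1, Ckb and Ly6c1 high in subcluster 5, while Acta2 and Col1a1 are highest in subcluster 3 and Top2a in subcluster 4.

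The organ was not part of the rule, so oviduct and uterine cells chosen alike were compared over the 2 libraries per organ. They differed in quality: the median mitochondrial share was 4.40% and 5.51% in deep oviduct cells and 12.9% and 8.32% in deep uterine cells, and a limit of 10% left 6 and 11 uterine cells. With that limit edgeR called 290 genes, 268 of them shared with the 412 calls given next. All 399 of the 412 that were still tested kept their sign. Beyond that limit, the part of this difference in the calls, those of immediate early and heat shock genes included, was not tested. In deep cells edgeR tested 8138 genes and called 412 (5.06%) at an adjusted p under 0.05, with 259 (3.18%) at a higher level in oviduct cells and 153 (1.88%) in uterine cells. Among all tested genes, 48.8% had no overlap between the libraries of the organs, and the median log2 fold change (oviduct minus uterus) was -0.0029. The calls rest on few uterine cells. No gene was called without uterus library 1 (1290 had an unadjusted p under 0.05), 93 without uterus library 2 and 210 without oviduct library 2, and none after the largest possible free RNA was subtracted (1599 at an unadjusted p under 0.05), while DESeq2 called 179. The fold sizes below are therefore given with each library's value. Lists were chosen with results of these data known, so their counts carry no independent weight. The shares over all tested genes given here apply to each list count of deep cells below.

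Of 14 tested genes of the secretory and glycoprotein list, 8 were called, all of them higher in the oviduct, and 6 were not. Of all tested genes, 3.18% were called in that direction. Of the 14 fitted changes 11 were positive and 3 negative, and the list's median log2 fold change was 3.35, or 2.45 with the 5 genes at 0 in the uterus put at their lower bounds. C3 was at 0 in both uterine libraries, and with the oviduct at 121 and 260 CPM it was at least 47.1-fold higher there (edgeR adjusted p = 0.000281). This bound and those that follow set the pooled counts of both libraries against a floor of 3 counts over the other organ's libraries. They use all UMIs of the sums and make no allowance for free RNA. Free RNA could be up to 46.5% and 83.8% of the deep uterine sums, so the bounds hold for the sums as counted only. With each oviduct library taken alone, the bound for C3 was 28.3-fold and 60.9-fold. The glutathione transferase Gsta3 (52.8 and 93.0 CPM against 0 and 0) was at least 17.8-fold higher. Ovgp1 stood at 77.2 and 85.0 CPM against 0 and 2.23 CPM, and the ratio of pooled counts was 57.4 with an exact interval of 10.2 to 2275, since the uterus held 1 UMI (edgeR adjusted p = 0.00025). Fam107a, at 31.9 and 51.8 CPM against 0 and 0, was at least 10.1-fold higher. The antimicrobial proteins Lcn2 and Ltf, haptoglobin (Hp) and the mucin Muc1 made up the other 4 calls, with Ltf at 13.4 and 65.3 CPM against 0 in both uterine libraries. Ptgds (216 and 206 against 272 and 355 CPM), Clu, Anpep, Msln, Muc4 and Cp were not called.

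C3 lies on chromosome 17 at 57203970-57228136 and Ovgp1 on chromosome 3 at 105973711-105987423 (mm10, gene limits of GENCODE M21). Pax8 lies on chromosome 2 at 24420560-24475599 and Wt1 on the same chromosome at 105126529-105173616. The single-cell counts are per gene and say nothing of exons or UTRs.

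Transcription factors of the duct went in both directions. Of 18 tested, 3 had calls towards the oviduct and 4 towards the uterus, and the median log2 fold change was -0.30. Of all tested genes, 3.18% and 1.88% were called in these directions. Nr2f1, an orphan nuclear receptor, stood at 56.2 and 54.2 CPM in the oviduct and at 0 in both uterine libraries, at least 12.9-fold higher. Wt1 stood at 108 and 160 CPM against 15.8 and 35.7 CPM, a log2 fold change of 2.26 ± 0.37 (SE, edgeR adjusted p = 0.00302). Pax8 stood at 160 and 208 CPM against 74.9 and 95.9 CPM, a log2 fold change of 1.08 ± 0.26 (edgeR adjusted p = 0.0279). Pax8 was called in only 7 of 17 alternatives. The call ended, for example, without cells rich in stromal, muscle or haemoglobin UMIs (0.97, edgeR adjusted p = 0.0805), which left 10 and 9 deep uterine cells. It also ended with free RNA subtracted (0.50, edgeR adjusted p = 0.481). That setting left no gene called. Free RNA could make up at most 1.97% of the Pax8 counts of either organ. Of all UMIs, it could make up 46.5% and 83.8% in the deep uterine sums, against 14.98% and 7.43% in the oviduct sums. Subtraction lowers these totals, so the level of a gene with few free counts changes as well. Sox17 (216 and 177 against 323 and 310 CPM) was not called (edgeR adjusted p = 0.0798), and its libraries did not overlap, as in 48.8% of all tested genes.

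Pax2, Msx1, Msx2 and the homeobox gene Dlx6 were higher in the uterus. Pax2 stood at 26.0 and 30.8 CPM against 51.3 and 89.2 CPM, a log2 fold change of -1.37 ± 0.32 (edgeR adjusted p = 0.0263). Dlx6 stood at 10.1 and 0 CPM against 67.0 and 84.7 CPM. Msx1 stood at 116 and 8.01 CPM against 272 and 482 CPM, a log2 fold change of -2.70 ± 0.66 (edgeR adjusted p = 0.0317), and Msx2 at 51.2 and 3.70 CPM against 162 and 190 CPM. In oviduct library 1, a single cell of 180365 UMIs in subcluster 4 held 113 of the library's 138 Msx1 UMIs and 51 of its 61 Msx2 UMIs. Without cells over 100000 UMIs the log2 fold changes were -4.65 for Msx1 and -4.81 for Msx2. Msx1 was detected in 6 of 49 and 4 of 89 deep oviduct cells. Dlx5 (63.7 and 14.8 against 98.6 and 138 CPM) was not called. The same cell held 57 of the 76 Dlx5 UMIs and 8 of the 12 Dlx6 UMIs of oviduct library 1, and without it Dlx5 stood at 18.8 CPM there.

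Of the other genes with the largest changes, 6 had no UMI in one organ. Pgm2l1 (62.1 and 81.3 CPM), the transcriptional coregulator Cited4 (47.8 and 73.9 CPM), the junction protein Jam2 (39.4 and 64.7 CPM), Calb1 (23.5 and 69.6 CPM) and Dbpht2 (14.3 and 68.4 CPM) were at 0 in both uterine libraries and, over pooled counts, at least 10.6-fold to 17.1-fold higher in the oviduct. Library 1 alone gave lower bounds of 3.34-fold for Dbpht2 and 5.5-fold for Calb1. BC048679 stood at 316 and 237 CPM against 3.94 and 2.23 CPM. In the other direction, Lce3c was at 0 in both oviduct libraries and at 55.2 and 33.4 CPM in the uterus, at least 38.8-fold higher there. The chemokine Cxcl17 (5.87 and 1.85 against 90.7 and 35.7 CPM), the insulin receptor substrate Irs1 (5.87 and 5.55 against 67.0 and 58.0 CPM), Tmem45b, the homeobox gene Barx2 and Osbpl3 were also higher in the uterus, with log2 fold changes from -3.95 to -2.99.

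Keratins and junction genes differed member by member. Krt8 stood at 661 and 848 CPM against 828 and 598 CPM and was not called (0.10 ± 0.22). The sign turned in 4 of the alternatives. Krt15 was higher in the oviduct (79.7 and 198 against 23.7 and 26.8 CPM, log2 fold change 2.46 ± 0.49) and Krt17 in the uterus (15.1 and 16.6 against 162 and 95.9 CPM, -2.94 ± 0.32). Among epithelial genes outside the rule, the claudin Cldn10 was higher in the oviduct, at 138 and 182 CPM against 7.88 and 0 CPM, while the claudin Cldn6 was higher in the uterus, at 40.3 and 35.7 against 74.9 and 109 CPM. Cdh16 (81.4 and 121 against 39.4 and 35.7 CPM) was higher in the oviduct, and the cadherin Cdh2 in the uterus (13.4 and 16.6 against 71.0 and 44.6 CPM).

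Among signalling genes, a few ligands were called between the organs. Wnt16 stood at 127 and 113 CPM in the oviduct against 0 and 4.46 CPM, and Wnt11 at 45.3 and 83.8 against 0 and 4.46 CPM. Wnt7a, a Wnt ligand of the duct epithelium needed for normal uterine and oviduct form, was higher in the uterus: 32.7 and 15.4 against 94.6 and 95.9 CPM, a log2 fold change of -2.03 ± 0.34 (edgeR adjusted p = 0.00372). Of 24 tested Wnt genes, 6 were called, against 5.06% of all tested genes. The other 3, all higher in uterine cells, were the secreted inhibitor Sfrp1 and the receptors Fzd1 and Fzd2, for which free RNA could make up 51.1% to 56.2% of the uterine counts. The Sfrp1 call ended when probable doublets were left out (-2.44 to -1.20, edgeR adjusted p = 0.334). In all other cells of the libraries Wnt16 kept the same order, with 164 and 146 CPM in the oviduct and 13.4 and 13.1 CPM in the uterus. In the Fgf list (10 tested), the ligand Fgf1 (21.0 and 48.7 against 0 and 0 CPM) and the feedback genes Dusp6 (30.2 and 38.2 against 3.94 and 6.69 CPM) and Spry1 (54.5 and 62.2 against 7.88 and 17.8 CPM) were higher in the oviduct, and the receptor Fgfr2 (69.6 and 58.5 against 197 and 147 CPM) in the uterus.

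Among the 12 tested retinoid genes, the retinoic acid producing enzyme Aldh1a3 was higher in the oviduct (69.6 and 49.3 against 0 and 4.46 CPM). The retinol importer Stra6 (10.9 and 4.93 against 67.0 and 62.4 CPM) and the binding protein Crabp1 (45.3 and 5.55 against 201 and 143 CPM) were higher in the uterus. Of 18 BMP and TGF-beta genes, the receptor Bmpr1b (60.4 and 80.7 against 11.8 and 17.8 CPM) and the secreted protein Tgfbi (270 and 167 against 59.1 and 114 CPM) were called, both higher in the oviduct. The Notch target Hes1 (394 and 376 against 122 and 207 CPM) was the only call among 6 Notch genes, and none of 3 hedgehog genes was called (1 had an unadjusted p under 0.05 by edgeR, and DESeq2 called 0).

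Of 7 tested hormone receptors, 2 were called, against 5.06% of all tested genes. Pgr, the progesterone receptor, was higher in the uterus (44.5 and 30.8 against 106 and 80.3 CPM, log2 fold change -1.29 ± 0.29, edgeR adjusted p = 0.0198). Esr1, the oestrogen receptor, stood at 83.9 and 96.1 against 63.1 and 22.3 CPM and was not called (1.24 ± 0.36, edgeR adjusted p = 0.065). It was called in 9 of 17 alternatives, with log2 fold changes from 0.56 to 3.08 over all of them. Free RNA could make up to 18.5% of the oviduct Esr1 counts and all of the uterine ones. The thyroid hormone receptor Thra was higher in the oviduct (97.3 and 85.0 against 35.5 and 37.9 CPM).

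**Figure D4:**
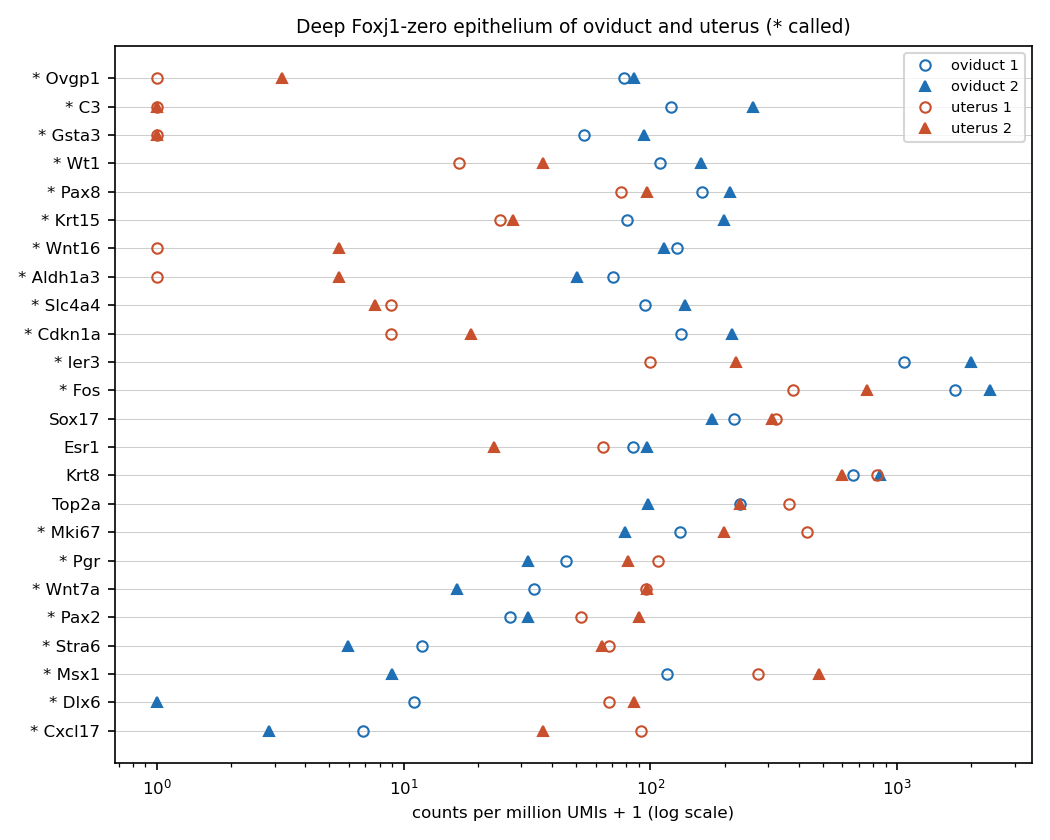
Levels of 24 genes (CPM + 1, log scale, horizontal) in deep Foxj1-zero epithelium, 1 point per library, with an asterisk before genes called between the organs. Ovgp1, C3 and Gsta3 are at or near 0 in both uterine libraries, and Msx1 of oviduct library 1 lies nearer to the uterine libraries than to oviduct library 2.

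Stromal and muscle markers summed higher in deep uterine cells than in deep oviduct cells. Without cells rich in stromal, muscle or haemoglobin UMIs, 58 fits of named genes in deep and shallow cells kept direction and call. In that setting 4 lost the call, 2 gained it and 1 changed sign. The mesenchyme markers summed to 1246 and 1797 CPM in deep uterine cells against 1001 and 465 CPM in the oviduct, and the smooth muscle markers to 863 and 537 against 417 and 299 CPM. None of 12 mesenchyme markers was at 0 in any of the 4 sums. More than 0.2% stromal and muscle UMIs were found in 15 of 34 deep uterine cells and in 24 of 138 deep oviduct cells. Hoxa10 (3.35 and 1.85 against 51.3 and 40.1 CPM), Hoxd11 (1.68 and 0 against 55.2 and 37.9 CPM) and Hoxd10, transcription factor genes that mark the uterine level of the tract, were called higher in the uterus. Free RNA could account for all of their uterine counts. These 3 genes were no longer testable once cells rich in stromal, muscle or haemoglobin UMIs were left out. The stromal genes Tcf21, Col1a2 and Acta2 were called higher in the uterus as well, and free RNA could account for 80.2% to all of their uterine counts. Hoxc4 went the other way, at 33.5 and 49.3 against 3.94 and 0 CPM. Without cells rich in stromal, muscle or haemoglobin UMIs Acta2 went from a log2 fold change of -1.26 to -0.24 and was not called (edgeR adjusted p = 0.893). It was not called without cells over 100000 UMIs either (-1.09, edgeR adjusted p = 0.058), but stayed called without probable doublets (-2.59, edgeR adjusted p = 0.000619). Col1a2 was not called without probable doublets (-0.92, edgeR adjusted p = 0.157). For the Hox genes the part of stromal RNA was not tested. Stra6 and Crabp1 had log2 fold changes of -4.51 and -3.51 without the stromal-rich cells, and Wt1 was called as well (edgeR adjusted p = 0.000169). Free RNA could make up 81.9% of the uterine and 53.9% of the oviduct Crabp1 counts. With free RNA subtracted no gene was called in deep cells, so a call lost there does not single out a gene. Crabp1 then went from -2.83 to -2.30 (edgeR adjusted p = 0.463) and Stra6 from -3.07 to -3.63 (edgeR adjusted p = 0.0529). Wt1 had an edgeR adjusted p of 0.0556. In both settings Wt1 had no count left in either uterine library, so its fitted log2 fold changes of 9.64 and 9.61, above the 2.26 of all cells, depend on the prior count and are no bound.

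Immediate early genes respond within minutes to stimulation and to tissue dissociation. Of 21 tested genes of the immediate early and heat shock list, 10 had calls towards the oviduct and 1 (Hspa1a) towards the uterus. Of all tested genes, 3.18% and 1.88% were called in these directions. The list's median log2 fold change was 0.98. Free RNA could account for all of the uterine and 48.8% of the oviduct Hspa1a counts. Ier3 stood at 1064 and 1983 CPM against 98.6 and 221 CPM, Klf2 at 102 and 217 against 11.8 and 8.92 CPM, Fos at 1717 and 2384 against 378 and 751 CPM and Atf3 at 535 and 936 against 142 and 216 CPM. The same list differed between the organs in all other cells of the libraries, where it summed to 9704 and 12815 CPM in the oviduct and to 4760 and 6007 CPM in the uterus. In deep cells it summed to 8843 and 13293 against 4317 and 5706 CPM. A shared difference between the organs' preparations and one of the epithelium cannot be told apart here.

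Of 20 tested G2 and M phase genes 1 was called (5%, against 5.06% of all tested genes). Of the 20 fitted changes 18 were negative and 2 positive. The call was Mki67, a marker of cycling cells (131 and 78.2 against 430 and 198 CPM, log2 fold change -1.55 ± 0.33, edgeR adjusted p = 0.0141). The call ended when probable doublets were left out (-0.83, edgeR adjusted p = 0.266) and without cells rich in stromal, muscle or haemoglobin UMIs (-0.64, edgeR adjusted p = 0.438). Top2a (229 and 96.7 against 363 and 230 CPM) was not called. None of 17 S phase genes was called by edgeR (2 had an unadjusted p under 0.05) or by DESeq2. After thinning to 5000 UMIs, 9 of 16 and 11 of 18 deep uterine cells held 5 or more UMIs of G2 and M phase genes, against the 15 of 49 and 23 of 89 oviduct cells given above. Of 6 tested cell cycle inhibitors, 3 were called (50%, against 5.06% of all tested genes). Cdkn1a stood at 133 and 214 CPM in the oviduct against 7.88 and 17.8 CPM, a log2 fold change of 3.61 ± 0.42 (edgeR adjusted p = 0.000335). It was higher in the other oviduct cells too, at 119 and 122 CPM against 12.2 and 14.6 CPM. The antiproliferative gene Btg2 was likewise higher in the oviduct (491 and 614 against 158 and 245 CPM), whereas the inhibitor Cdkn1c was higher in the uterus (171 and 106 against 347 and 482 CPM). Free RNA could make up 67.9% of the uterine and 32.4% of the oviduct Cdkn1c counts. With it subtracted, a setting in which no gene was called, the log2 fold change of Cdkn1c went from -1.61 to -1.18.

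Slc4a4, the only call among 5 tested transport genes, stood at 93.9 and 137 CPM against 7.88 and 6.69 CPM, a log2 fold change of 4.00 ± 0.45 (edgeR adjusted p = 0.000281). Pifo, a gene of the primary and motile cilium, was at 13.4 and 12.3 CPM against 0 and 0, at least 2.99-fold higher in the oviduct. Too few counts were available to test Foxa2 (9.23 and 8.01 against 0 and 0 CPM) and Ccno, and Mcidas was at 0 in all 4 deep sums. All 3 tested genes of the Wolffian and nephric duct list were called, but in both directions: Calb1 and Cdh16 higher in the oviduct and Pax2 higher in the uterus.

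In shallow cells the depth allowed fewer tests. Of 2620 genes, 11 were called (0.42%), 9 towards the oviduct (0.344%) and 2 towards the uterus (0.0763%), and 41.3% of genes had no overlap between the organs. The mesenchyme markers summed to 1599 and 1541 CPM in shallow oviduct cells and to 489 and 1144 CPM in shallow uterine cells, where 4 and 1 of the 12 were at 0. Without cells rich in stromal, muscle or haemoglobin UMIs edgeR called 41 genes, all 11 of the main calls among them. Beyond that, the part of stromal RNA in the calls was not tested. With the replicate number as a block, edgeR called 157. Without oviduct library 1, oviduct library 2 or uterus library 1 it called 40, 47 and 30. C3 stood at 188 and 89.0 CPM against 0 and 0, at least 9.59-fold higher in the oviduct (edgeR adjusted p = 0.0202), and Hdc at 105 and 75.9 CPM against 0 and 0, at least 6.65-fold higher. The Hdc call was made in 6 of 13 alternatives and the C3 call in 11 of 14. Hdc was not at 0 in deep uterine cells: before thinning 6.25% of 16 and 5.56% of 18 had a UMI, against 30.6% and 32.6% of deep oviduct cells. BC048679 stood at 192 and 199 CPM against 0 and 7.02 CPM. Msx1 stood at 22.9 and 20.9 CPM against 318 and 203 CPM, a log2 fold change of -3.36 ± 0.50 (edgeR adjusted p = 0.00687), with both oviduct libraries low. Tmod3, a capping protein of actin filaments, stood at 41.2 and 41.9 against 387 and 288 CPM. Ovgp1, with too few counts in the uterus, stood at 96.2 and 47.1 CPM in the shallow oviduct cells and at 0 in both uterine sums. Col1a1 in shallow oviduct cells was at 408 and 460.5 CPM, above the 254 and 110 CPM of deep cells, and Fos was at 522 and 843 CPM, below their 1717 and 2384 CPM.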

How the data were processed

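The deposited values are UMI counts per gene and barcode, which the authors made with Cell Ranger (6.0.1 for called barcodes and 4 for all barcodes, per the file headers). The submitters' processing notes name the mm10 build and Seurat 4.2.3. Annotation release and intron setting: not given in the sources used here. Cells were chosen by the rule in the report, and their counts were summed per library. Members and gene lists were chosen with earlier results of these data known.

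Sums were compared with edgeR 4.0.16 (TMM scaling, filterByExpr, quasi-likelihood F-test, organ as the only term, two-sided, Benjamini-Hochberg adjustment over all genes tested, threshold 0.05). The standard error is the log2 fold change divided by the square root of F. Replicates are pools of animals, 2 libraries per organ. Genes of the selection rule are not reported as tested. Named genes are the 10 largest changes per direction in deep cells and 3 in shallow cells among calls whose mean level reached 20 CPM, with no overlap of the organs and a free-RNA bound of at most 25%, without predicted, mitochondrial, ribosomal and haemoglobin genes, plus the 3 largest calls per direction in each of 31 lists and a fixed set (Pax8, Pax2, Ovgp1, Foxa2, Wt1, Sox17, Esr1, Pgr, Wnt7a, Krt8, Mki67, Top2a, Ccno, Mcidas). A gene that this rule names is not reported here. Some called list members are named beyond this rule to complete a count, and further levels were chosen for description after their values were seen. The free-RNA bound scales the profile of uncalled droplets (1 to 100 UMIs) to the collagen counts of each sum. Subclusters came from scanpy 1.11.5 (2000 variable genes, 15 principal components, 15 neighbours, Leiden resolution 0.5). Scrublet scores marked doublets at 0.8% per 1000 barcodes.

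Per the design text, both organs' libraries came from the same neonates. The labels do not say that equal replicate numbers mark the same pool, so the block by replicate number need not follow the animals. The replicate differences of the organs correlated at 0.012 over 8138 genes in deep cells and at 0.37 in shallow ones.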

Additional observations from a re-analysis of the deposited data

How the results depend on the processing

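Against 412 calls in deep cells, DESeq2 gave 179, no low-count filter 741, keeping Foxj1-positive cells 1125, thinning to 5000 UMIs per cell 121 and subtraction of free RNA 0. Leaving out 1 library gave 0 to 480. Against 11 calls in shallow cells, keeping Foxj1-positive cells and leaving out doublets gave 7 each, at least 5 markers 0 (87 at an unadjusted p under 0.05), at most 10% mitochondrial UMIs 90, no low-count filter 65, leaving out cells rich in stromal, muscle or haemoglobin UMIs 41, and leaving out cells under 1% mitochondrial UMIs 46. Leaving out 1 library gave 14 to 47. For these counts the cause was not tested, except that fewer libraries, other filters and thinning change how many genes and counts enter.

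Blocking by replicate number raised the shallow count to 157 and gave 456 in deep cells. It ended no call of a named gene and added 1. Of the 412 deep calls, 393 were shared with the blocked fit and 177 with DESeq2. The changed sign of Krt8 was -0.37 after free-RNA subtraction, -0.22 without cells rich in stromal, muscle or haemoglobin UMIs, -0.070 without oviduct library 2 and -0.085 without uterus library 2, and leaving out 1 library gave at most 0.34. The difference of the organs in the shallow share ranged from -0.12 to 1.33 percentage points on leaving out 1 library. Named genes kept direction and call in 894 of their alternative fits, lost the call in 240 and gained it in 16. The exclusions of cells by stromal or haemoglobin UMIs, by depth over 100000 UMIs and by low mitochondrial share were chosen after seeing the data. Deep uterine sums of 253647 and 448514 UMIs set a floor of 4.27 CPM (3 counts over both libraries) for genes at 0 there, with no allowance for free RNA.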
